A study of Mus musculus with 4 samples.

Results

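Retinoic acid is a small signal made from vitamin A, and 9 mouse genes of its synthesis, breakdown, transport and sensing were read in muscle pieces of limb and back from E13.5 embryos. The genes are Rdh10, Aldh1a1, Aldh1a2, Aldh1a3, Cyp26a1, Cyp26b1, Crabp1, Crabp2 and Rarb. They were taken by symbol, and all 12 of their probe sets on the array were read, out of 18194 genes named on the array. A probe set is a group of short probes that together give 1 signal for a transcript. The 4 arrays, 1 per group, held RNA of wild-type (WT) limb muscle, MyoD-/- limb muscle, WT back muscle and Myf5-/- back muscle. All 4 groups share the BALB/c strain and the age of E13.5. MyoD (gene Myod1) and Myf5 are transcription factors that set embryonic cells on the path to skeletal muscle. How many embryos each array stands for, and how much of each gene was deleted, is not stated in these sources. By its title, the series asks what part muscle has in motor neuron development. Since each group is 1 array, nothing measures the spread between embryos, the differences below are between single arrays, and they carry no p-value.

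Cells make retinoic acid in a pair of oxidation steps. Retinol is first turned into retinaldehyde, mainly by Rdh10, and retinaldehyde is then turned into retinoic acid by an enzyme of the Aldh1a family. Cyp26 enzymes break retinoic acid down, the Crabp proteins bind it inside cells, and RAR receptors such as that of Rarb turn it into changes of transcription. In the embryo, Aldh1a2 is the main source of retinoic acid in the trunk, and Cyp26b1 clears it from the growing limb. Rarb and Cyp26a1 are textbook target genes, so each also serves as a readout of the signal.

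The promoters of Rarb and Cyp26a1 are shown because RAR receptors, paired with RXR, bind a direct repeat of a 6-base element, and both promoters held such a repeat. Cyp26b1, the other breakdown enzyme, is shown for comparison. Each line gives the 150 bases before the gene's start, 5′ to 3′ on the gene's strand, from RefSeq on GRCm38.p6. Capitals mark the 6-base elements of a repeat with a spacer of 5 bases. Rarb lies at chr14:16575477-16575626 on the minus strand, Cyp26a1 at chr19:37697658-37697807 on the plus strand and Cyp26b1 at chr6:84593811-84593960 on the minus strand.
Rarb: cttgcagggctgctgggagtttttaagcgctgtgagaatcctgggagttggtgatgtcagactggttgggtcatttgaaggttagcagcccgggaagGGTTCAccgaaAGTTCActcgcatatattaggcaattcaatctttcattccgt
Cyp26a1: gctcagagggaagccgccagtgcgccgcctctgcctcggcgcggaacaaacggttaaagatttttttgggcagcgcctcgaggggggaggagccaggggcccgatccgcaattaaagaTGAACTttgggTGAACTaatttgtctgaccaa
Cyp26b1: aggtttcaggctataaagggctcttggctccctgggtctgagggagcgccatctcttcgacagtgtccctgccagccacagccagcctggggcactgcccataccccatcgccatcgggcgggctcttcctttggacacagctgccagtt
The element searched was AGGTCA or AGTTCA or GGGTCA or GGTTCA, with any 2 of them in the same orientation, on both strands, over the bases from 250 before to 50 after the start. The repeat of Rarb was on the gene's strand, from 53 to 37 bases before the start. That of Cyp26a1 was on the opposite strand, from 32 to 16 bases before the start, so its capitals are the reverse complement. Of 32851 promoters in the table, 32 held this repeat (0.0974%), and 2 of the 7 promoters found for 6 of the 9 genes did. These 2 are Rarb and Cyp26a1, named above as known targets, so the count is no test of the group. With spacers of 1 or 2 bases, 73 and 88 promoters matched, and 0 of the 7. A match is a string of letters and does not show that a receptor binds there, and a window without one says nothing about the factor.

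Signals are intensities scaled to a trimmed mean of 500 per array. A signal under 100, the floor, was taken to give no level, and a gene was counted in a comparison when it differed at least 2-fold with the brighter array at 200 or more. As a yardstick, probe sets of the same gene differed in log2 ratio with a median SD of 0.35 for the limb pair and for WT limb against WT back, and 0.32 for the back pair. It covers noise of the probes and not of animals. Some facts of the arrays touch the results. Myod1 was 688 in MyoD-null limb against 1438 in WT limb. Myf5 was 583 in the array labelled Myf5-null against 508 in WT back, so it was not lower there. It is not known here whether these probes lie in the deleted parts, and that array is called by its label throughout. All 10 skeletal muscle markers were above the floor in all 4 arrays. Their summed signal was 76772 (WT) and 51722 (MyoD-null) in limb, and in back 146712 in WT and 97286 in the array labelled Myf5-null. The limb pieces also held signal of the limb's distal mesenchyme, with Hoxd13 at 12104 and 15406 in the limb arrays against 157 and 167 in the back arrays. In such pieces, fewer cells of a type and less RNA per cell cannot be told apart. Signal leaned to the 3 prime end in each array, where the Gapdh probe sets of the 3 prime end read from 6.45 (WT back) to 12.2 (WT limb) times those of the 5 prime end.

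**Figure D1:**
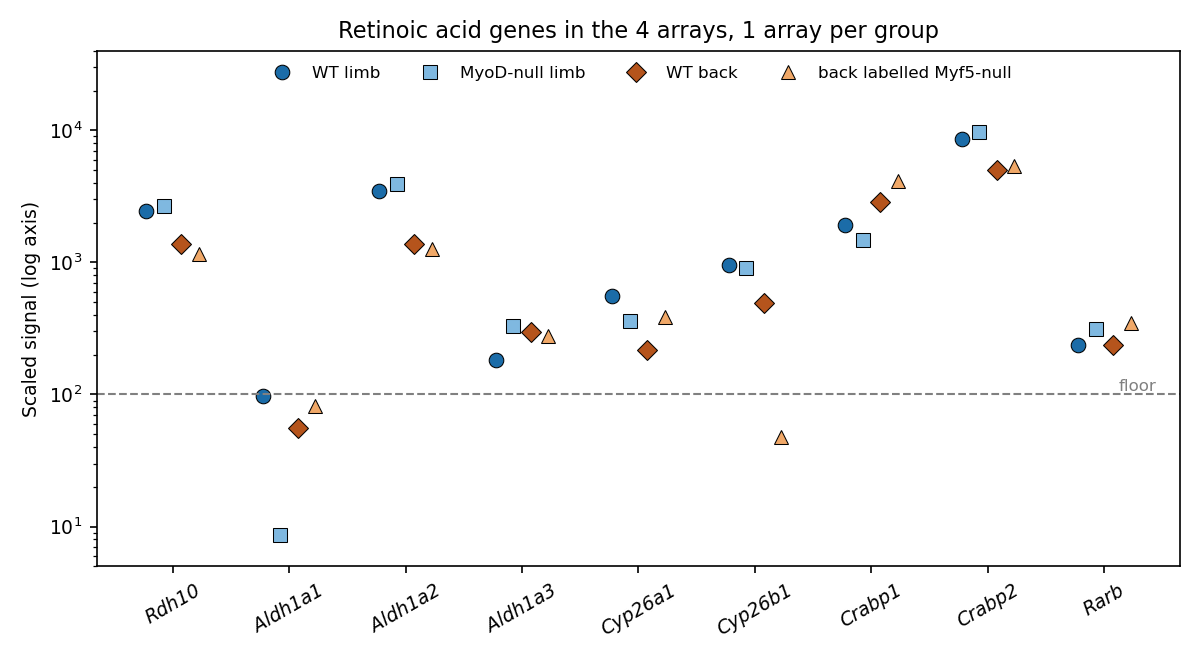
Scaled signal (log axis) of each gene's representing probe set in the 4 arrays, 1 point per array, with the floor of 100 as a dashed line. Rdh10, Aldh1a2, Cyp26b1 and Crabp2 have both limb points above both back points, Crabp1 has the reverse, and all 4 points of Aldh1a1 lie under the floor.

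The first question was how the pathway differed between limb and back. Aldh1a2 and Rdh10, which make retinoic acid, were higher in both limb arrays than in both back arrays. Aldh1a2, the main synthesizing enzyme of the embryo, had signals of 3469.9 (WT) and 3927 (MyoD-null) in limb, and in back 1377 in WT and 1272 in the array labelled Myf5-null. Both limb arrays were above both back arrays, and within each region the values lay close together. Aldh1a2 was 2.52-fold higher in WT limb than in WT back (log2 ratio 1.33) and 3.09-fold higher in MyoD-null limb than in the array labelled Myf5-null (1.63). It was the only 1 of the 9 genes that reached 2-fold in the same direction in both comparisons of limb with back, as did 0.601% of all genes measured. None of the 9 was 2-fold lower in limb in both, as 0.715% of all genes were.

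Rdh10, the enzyme of the first step, followed the same order. Its brighter probe set read 2448 (WT) and 2671 (MyoD-null) in limb, and in back 1389 in WT and 1166 in the array labelled Myf5-null. The limb arrays were again both above the back arrays, 1.76-fold between the wild types (0.82) and 2.29-fold between the mutants. A second probe set read 1396, 1870.3, 1249.7 and 994 in the same order of arrays. It kept the direction but gave only 0.16 between the wild types, and 0.91 between the mutants, short of 2-fold. The size of the difference in Rdh10 thus depends on the probe set.

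The other synthesizing enzymes were near or under the floor. Aldh1a3, which acts mainly in head and sensory organs, read 183 (WT) and 328 (MyoD-null) in limb, and in back 298 in WT and 278 in the array labelled Myf5-null. The lowest value was thus a limb array and the highest one too, and the regions overlapped. Its other 2 probe sets were under the floor in all 4 arrays. Aldh1a1, an enzyme of the eye and of adult tissues, was under the floor in all 4 arrays, at 98.1, 8.65, 55.5 and 81.2, and so has no level and no ratio here.

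Of the breakdown enzymes, Cyp26b1 separated the regions. Its signals were 956 in WT limb, 903 in MyoD-null limb and 494 in WT back, and 47.5, under the floor, in the array labelled Myf5-null. WT limb was 1.94-fold above WT back (0.95), just short of 2-fold, and up to 1.01 under the alternatives. MyoD-null limb was at least 9.03-fold above the array labelled Myf5-null. Cyp26a1 had another order, with 556 (WT) and 363 (MyoD-null) in limb, and in back 216 in WT and 389 in the array labelled Myf5-null. It was 2.57-fold higher in WT limb than in WT back (1.36), but between the mutants the ratio was -0.10, or 0.018 at the other end of the 8 alternatives. The regions overlapped for this gene, and the difference of the wild types was not seen in the mutants.

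The pair of binding proteins went in opposite directions. Crabp2, which hands retinoic acid to the receptor in the nucleus, had signals of 8618 (WT) and 9754 (MyoD-null) in limb, and in back 5004 in WT and 5345 in the array labelled Myf5-null. Its log2 ratios of limb over back were 0.78 and 0.87. Crabp1, a binding protein of mesenchyme and neural crest linked to the clearing of retinoic acid, read 1936 (WT) and 1478 (MyoD-null) in limb, and in back 2884 in WT and 4107 in the array labelled Myf5-null. Its ratios were -0.58 between the wild types and -1.47 between the mutants. It was thus the only 1 of the 9 genes with both back arrays above both limb arrays, and it is read by a single probe set of a type whose probes can be shared between transcripts. Without such probe sets Crabp1 has no value, and the count between the mutants given below is 3 in place of 4.

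Rarb, the receptor gene that is itself a target, hardly differed between the regions. It read 239 (WT) and 311 (MyoD-null) in limb, and in back 238 in WT and 350.5 in the array labelled Myf5-null. The wild types had a log2 ratio of 0.0034. The ratio of the mutants was -0.17, smaller than the spread between probe sets of 1 gene. Rarb thus did not show the limb excess of Aldh1a2 and Rdh10.

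Taken over the group, 8 of the 9 genes reached the floor in some array. Of these 8, 4 had both limb arrays above both back arrays (Aldh1a2, Rdh10, Cyp26b1 and Crabp2), against 17.1% of 15810 genes measured. The reverse order held for 1, Crabp1, against 18.3% of all genes. At 2-fold, 2 were counted between the wild types (Aldh1a2 and Cyp26a1, both higher in limb), where 8.8% of all genes were, 5.3% higher and 3.5% lower. Between the mutants 4 were counted (Aldh1a2, Rdh10 in its brighter probe set and Cyp26b1 higher, Crabp1 lower). Of all genes 11.3% were counted there, 3.61% higher and 7.73% lower. The median log2 ratio of the 8 was 0.80 and 0.55 in the 2 comparisons, against 0.042 and -0.076 over all genes. These comparisons use different arrays, but each also shares an array with the mutant comparisons below. The list of limb mesenchyme, 12 genes of which 9 to 11 were above the floor in each array, summed to 25334 and 28003 in WT and MyoD-null limb. In WT back and the array labelled Myf5-null it summed to 3793 and 4049. Of its genes, only Hoxd12 was under the floor in all 4 arrays, and Hoxd13 made up the largest part of the limb sums. Of the 11 measured, 10 were higher in WT limb than in WT back, and Pitx1 was lower. Between the mutants 9 were higher in limb, and Pitx1 and Hoxa13 were lower. In the limb pair 6 were lower, Pitx1 (757 in WT, 243 in MyoD-null) and Tbx4 (815, 484) among them. The other 5 were higher, with Tbx5 at 1152 and 1375. Epidermis markers, 7 or 8 of 8 above the floor, summed to 14789 and 15621 in limb and to 8109 and 10920 in back. The part of these tissues in the limb values of the retinoid genes was not tested.

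**Figure D2:**
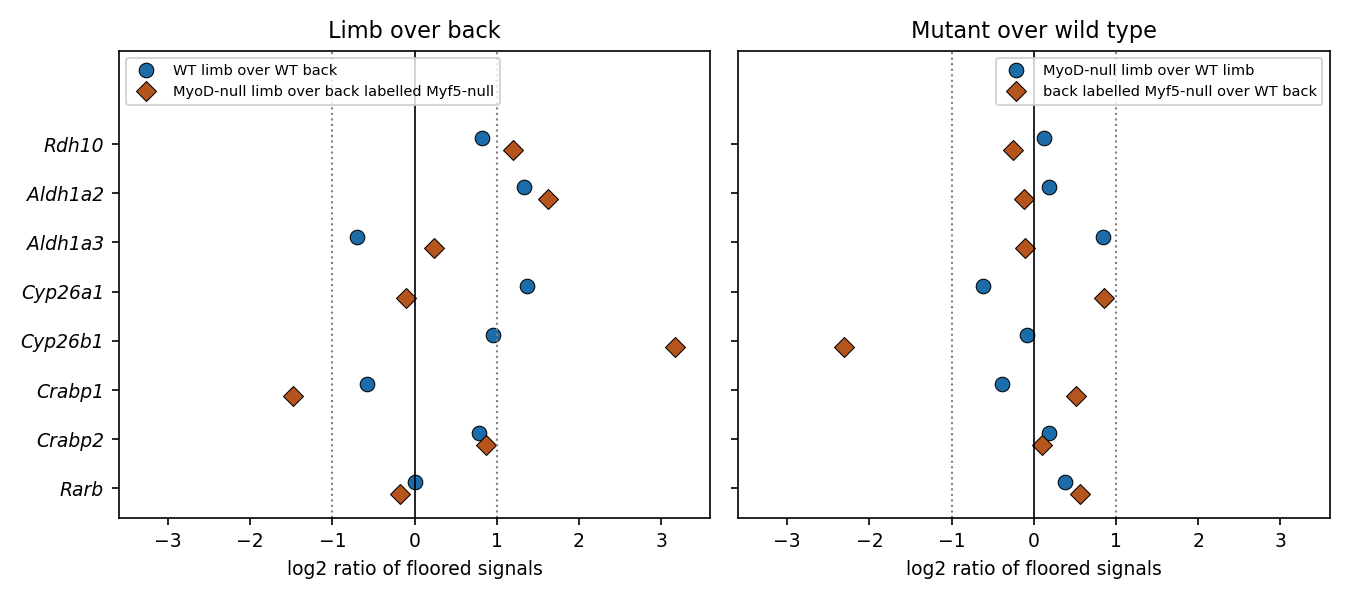
Log2 ratios of floored signals for the 8 genes above the floor, 1 point per comparison of single arrays, for limb over back (left) and mutant over wild type (right). Dotted lines mark 2-fold. The Cyp26b1 points that involve the array labelled Myf5-null are lower bounds in size, and Aldh1a2 is the only gene past 2-fold in both comparisons on the left.

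The second question was whether the pathway differed in the mutants. In MyoD-null limb, 0 of the 8 genes above the floor reached 2-fold, where 7.5% of all genes did, 2.3% higher and 5.19% lower. Aldh1a3 had the largest ratio, 0.84, and Cyp26a1 the lowest, -0.61. Aldh1a2, Crabp2, Rdh10 and Cyp26b1 lay between -0.08 and 0.18, within the spread between probe sets. Crabp1 was 1.31-fold lower (-0.39) and Rarb 1.30-fold higher (0.38), both just past that spread. The ratio of Aldh1a3 was 1.02 after loess, where it was counted, and 0 as a median over its probe sets, of which the other 2 are under the floor.

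In the back, 1 of the 8 genes was counted, where 7.98% of all genes were, 5.5% higher and 2.48% lower. Cyp26b1 was at least 4.94-fold lower in the array labelled Myf5-null than in WT back. Its ratio was lower than that of all but 0.034% of the 14685 genes measured there, although it rests on a single probe set and on a signal without a level. Cyp26a1, the other breakdown enzyme, was 1.80-fold higher in the same array (0.85). Rarb was 1.47-fold higher (0.56) and Crabp1 1.42-fold higher (0.51). The 2 genes whose promoters hold the repeat shown above, Rarb and Cyp26a1, were thus both higher, without reaching 2-fold. After loess their ratios were 0.42 and 0.71. Over all genes measured in this pair, 53.9% were higher. Among 12 other genes known to respond to retinoic acid, 8 were higher and 4 lower. Of all genes counted in this pair, 68.9% were higher in the array labelled Myf5-null, but 35.5% after loess. The direction of the counted genes as a set thus depends on the scaling. In the limb pair Rarb and Cyp26a1 went apart, at 0.38 and -0.61. Aldh1a2, Aldh1a3 and Crabp2 lay between -0.11 and 0.09, and Rdh10 at -0.25.

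Cyp26b1 was the only 1 of the 9 genes that ranged at least 4-fold over the 4 arrays, at least 9.56-fold since its lowest signal is under the floor. The 5 genes with the most similar pattern were therefore looked up for it, by the smallest Euclidean distance of centred log2 signals over the 4 arrays, among 241 other genes of that range. They were Glrb, a subunit of the glycine receptor (distance 0.74), the cartilage collagen gene Col9a1 (0.74), the secreted protease gene Htra1 (0.76), Sox9, the master factor of cartilage (0.76), and Depp1 (0.80). With 4 arrays such a ranking is loose, and between 1 and 5 of these genes were found again under 7 other settings. Sox9 read 1419 (WT) and 2078 (MyoD-null) in limb, and in back 1247 in WT and 304 in the array labelled Myf5-null. Of its 2 dimmer probe sets, 1 was also lower there and the other was higher. Col9a1 read 6201, 7082, 5480.0 and 1224 in the same order. Both were chosen for a pattern like that of Cyp26b1, so their low signal in the last array is part of the choice.

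Cartilage markers, a list of 12 genes that includes Sox9 and Col9a1, were mostly lower in the array labelled Myf5-null than in WT back. All 12 were above the floor in the first 3 arrays, and 9 were in the array labelled Myf5-null, where Col9a2, Col11a2 and Matn3 were not. Their summed signal was 20505 (WT) and 24656 (MyoD-null) in limb, and in back 21377 in WT and 5173 in the array labelled Myf5-null. Of the 12, 11 were lower in that array than in WT back and 7 were at least 2-fold lower, with a median of -1.64. Between WT limb and WT back the summed cartilage signal was 20505 against 21377, and Cyp26b1 was 1.94-fold apart. Of the 12 cartilage genes, 8 were higher in WT limb, 1 of them at least 2-fold, and 4 were lower. The part of cartilage in the Cyp26b1 values was not tested.

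**Figure D3:**
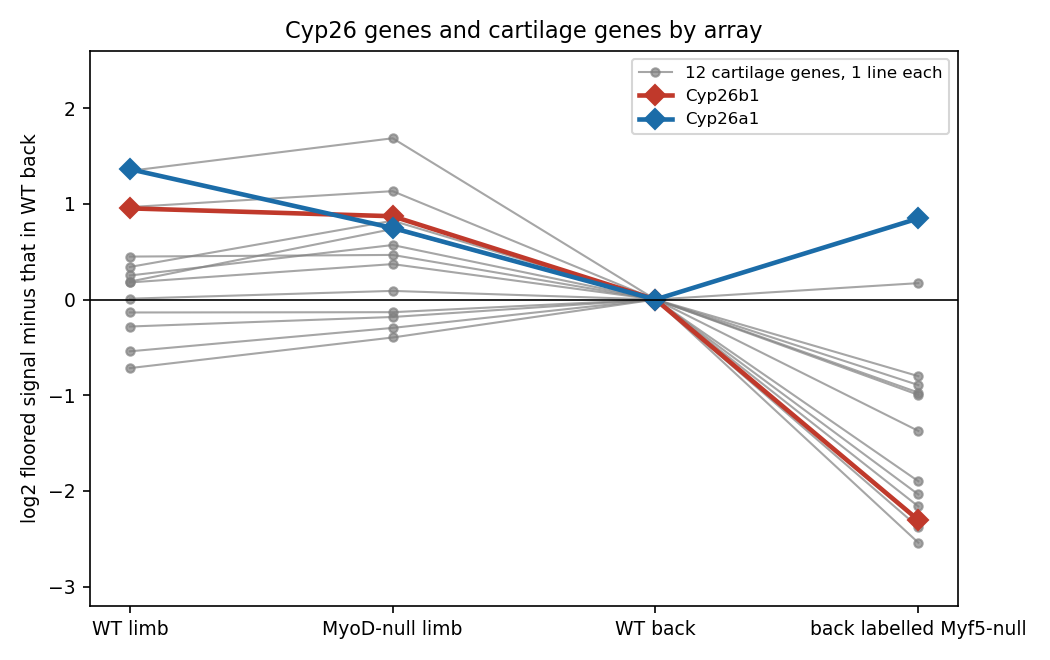
Log2 floored signal of Cyp26b1, Cyp26a1 and the 12 cartilage genes in each array, minus that in WT back, 1 line per gene. In the array labelled Myf5-null, Cyp26b1 is drawn at -2.30, a bound set by the floor. The points of Col9a2, Col11a2 and Matn3 in that array are such bounds too. Of the cartilage lines 11 lie below 0 there, and Cyp26a1 stands at 0.85.

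The rest of the pathway was read through 4 gene lists, beside which the share of all genes counted at 2-fold is as given above. Proteins of uptake and storage were measured by 9 of 10 listed genes. Between WT limb and WT back 0 were counted, and the median over 8 was 0.39. Stra6, the membrane receptor that takes up retinol, read 247 (WT) and 383 (MyoD-null) in limb, and in back 215 in WT and 267 in the array labelled Myf5-null, so the regions overlapped. Rbp4, the blood carrier of retinol, was 314 and 250.2 in the limb arrays, 181 in WT back and under the floor in the array labelled Myf5-null. Lrp2, an uptake receptor, was 238 in that array and under the floor in WT back, at least 2.38-fold higher, but its other 2 probe sets were under the floor in all 4 arrays. Fabp5, which can carry retinoic acid to another receptor, read 53763 in the WT limb array and 30760.4 in the MyoD-null one (-0.81), with 0.018 in a second probe set.

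The other enzymes were 20 of 22 listed. Adh1, an alcohol dehydrogenase that oxidizes retinol, read 1129.6 (WT) and 798 (MyoD-null) in limb, and in back 2437 in WT and 4476 in the array labelled Myf5-null. It was 2.16-fold lower in WT limb than in WT back (-1.11) and 5.61-fold lower between the mutants (-2.49), opposite to Rdh10. Retsat, which saturates retinol, was 238 and 239 in the limb arrays and under the floor in both back arrays. It was at least 2.38-fold higher in WT limb, with a bound of 0.37 in a dimmer probe set. Dhrs3, which turns retinaldehyde back into retinol, read 565 (WT) and 722 (MyoD-null) in limb, and in back 479 in WT and 639 in the array labelled Myf5-null. It was higher in each mutant than in its wild type, by 0.35 and 0.42, without reaching 2-fold. Adh7 was 303 against 144 in the back pair (1.07). A dim second probe set gave -0.31, a bound, at 124 in WT back and under the floor in the array labelled Myf5-null. In the limb pair 0 of 15 measured enzymes were counted, with a median of -0.12. In the back pair 1 of 13 was counted, with a median of 0.054.

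Of 12 listed receptors and coregulators 10 were measured. The receptor gene Rarg and Ncoa3, in its brighter probe set, made 2 with both limb arrays above both back arrays, against 17.1% of all genes. The reverse order held for 1, Rxrg, against 18.3%. The dimmer probe set of Ncoa3 had both back arrays above both limb arrays. It read 378 (WT) and 366 (MyoD-null) in limb, and in back 496 in WT and 522 in the array labelled Myf5-null. Rarg read 2701 (WT) and 2965 (MyoD-null) in limb, and in back 1417 in WT and 1493 in the array labelled Myf5-null, with limb over back ratios of 0.93 and 0.99. A dim second probe set of Rarg was above the floor only in WT back. Rxrg, a partner receptor that muscle also expresses, was lower in WT limb than in WT back at 261 against 557 (-1.09), and 360 against 373 between the mutants. Ppard, another partner of RXR, was 303 in WT back and under the floor in the array labelled Myf5-null, a fall of at least 3.03-fold. The median of the list was -0.28 between the wild types and 0.20 between the mutants, so it had no common direction.

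Genes known to respond to retinoic acid had no single direction between the wild types, where 7 of the 12 measured were lower in limb and 5 higher. Of 18 listed genes 15 were on the array, and 13 reached the floor in some array. Of these 13, 5 had both back arrays above both limb arrays (Hoxb5, Meis1, Meis2, Tgm2 and Nr2f1), against 18.3% of all genes, and 1 had the reverse (Nr2f2, in its brightest probe set), against 17.1%. Between the wild types 3 of 12 were at least 2-fold lower and 1 higher in limb, with a median of -0.66. Between the mutants 6 of 11 were lower and 0 higher, with a median of -1.38. These medians depend on the processing, with a range from -0.70 to -0.13 and from -1.28 to -0.29 over the 8 alternatives. The counts in either direction also depend on it, falling from 4 to 1 with a pseudocount between the wild types and from 6 to 3 without shared-probe probe sets between the mutants. Meis and Hox genes of the list also mark position along the body and limb, and Stra6 and Dhrs3 stand in 2 of the 4 lists.

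Meis1, a homeobox gene of the proximal limb, read 1066 (WT) and 684 (MyoD-null) in limb, and in back 2656 in WT and 2624 in the array labelled Myf5-null. Its limb over back ratios were -1.32 and -1.94. A second probe set gave -0.96 and -1.84, and another, dim in all 4 arrays, gave 1.01, a bound, and -0.41. Meis2, its relative, read 3347, 2594, 6356 and 7244 in the same order, and its other 3 probe sets were also lower in limb in both comparisons. Tgm2, a transglutaminase induced by retinoic acid in many cells, read 612, 262, 1314 and 1252. Both limb arrays were below both back arrays for each of these 3 genes in the brightest probe set. A dim probe set of Tgm2 gave limb over back ratios of -0.43 between the wild types and 0.52, a bound, between the mutants. The rest of its probe sets above the floor were lower in limb in both comparisons. Between the limb arrays, Tgm2 had a ratio of -1.23 for MyoD-null over WT, with -1.23, -0.72, 0.15 and 0.28 in the other 4 probe sets above the floor. Nr2f1 and Nr2f2, related orphan receptors, had WT limb over WT back ratios of -0.90 and 1.05. The other 5 probe sets of Nr2f2, bounds included, gave between -0.11 and 0.82 there. Between the mutants they gave between -0.91 and 0.18, where the brightest gave 0.31. None of the 5 had both limb arrays above both back arrays.

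**Figure D4:**
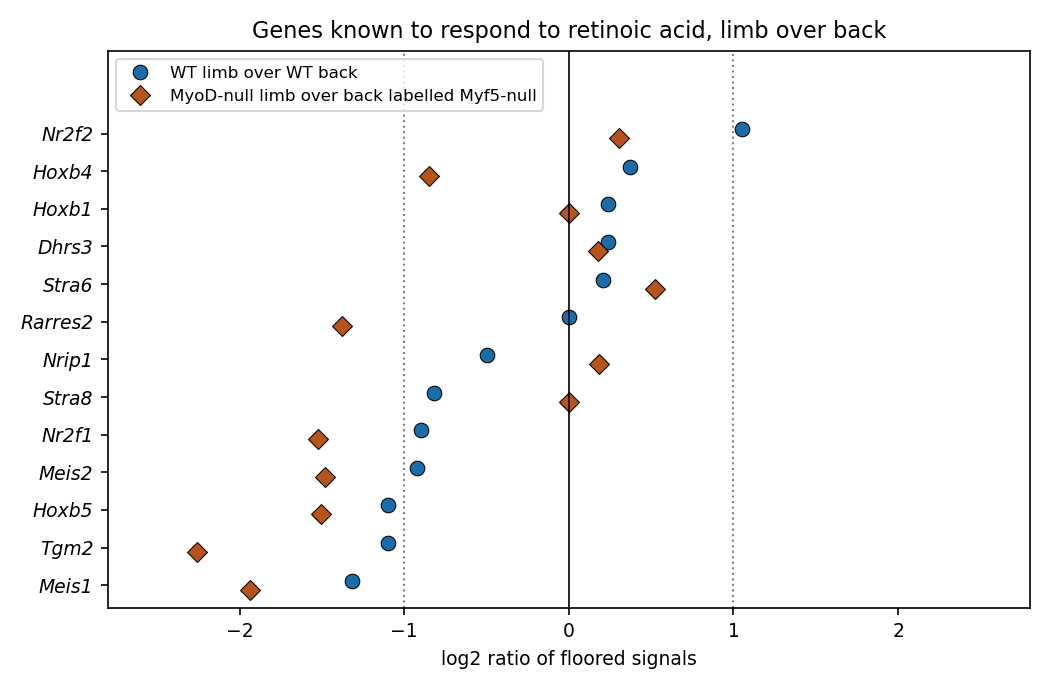
Log2 ratios of limb over back for the 13 listed response genes that reached the floor in some array, 1 point per comparison of single arrays, with dotted lines at 2-fold. Meis1, Tgm2, Hoxb5, Meis2 and Nr2f1 lie left of 0 in both comparisons, and Nr2f2, Stra6 and Dhrs3 lie right of 0 in both.

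The response genes were also read within each region. In the limb pair 2 of 11, Tgm2 and Hoxb4, reached 2-fold and were lower in the mutant, with a median of -0.24. Hoxb4 was 233 in WT limb and under the floor in MyoD-null limb, a bound of 2.33-fold. Its second probe set, at 105 in WT limb and under the floor in MyoD-null limb, gave a bound of -0.07. In the back pair 1 of 12 was at least 2-fold higher in the array labelled Myf5-null, with a median of 0.25. This was Rarres2, at 259 against under the floor, at least 2.59-fold. Its other 2 probe sets were lower in that array, from 110 and 113 in WT back to signals under the floor. Over all genes the share of counted genes that were higher depended on the scaling. It was 30.7% in the limb pair, 45.5% under quantile normalization and 58.7% after loess. The same shares were 68.9%, 50.2% and 35.5% in the back pair, 60.2%, 53.1% and 45.9% for WT limb over WT back, and 31.8%, 49.6% and 60.4% between the mutants.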

How the data were processed

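Trizol served to extract total RNA, and cRNA carrying biotin was read on Affymetrix arrays, per the labels' protocols. The deposited table holds linear intensities, and the submitters' processing notes name MAS5. Scanner files and detection calls were not used here. Their trimmed means (2% off each end) lay between 1477 and 1479. Each array was rescaled to a trimmed mean of 500, a floor of 100 was applied, and ratios were expressed as log2. A single gene symbol was found for 34958 of 45101 probe sets, several for 932 and none for 9211. Where a gene had several probe sets, the brightest on the mean log2 scale stood for it. A fold against a signal under 100 is a bound against 100.

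Groups came from the sample titles. No test was run, since a group is 1 array, and precision is limited by that number. The genes, 4 pathway lists and 10 marker lists were chosen with earlier results of these data known. The rule named the 9 genes, list genes counted at 2-fold, up to 4 genes of each list with the largest ratios, and the 5 nearest patterns to any of the 9 ranging 4-fold. Stra6, Dhrs3, Syndig1 and the single marker genes were named after their values were seen. Tried instead were no rescaling, quantile normalization, loess with a span of 0.3, floors of 50 and 200, a pseudocount of 100, the median over probe sets, and leaving out shared-probe probe sets. The steps were tested on simulated data. Python 3.11.15, pandas 2.3.3 and statsmodels 0.14.6 were used.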

Additional observations from a re-analysis of the deposited data

How the results depend on the processing

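Under the 8 alternatives, 243 log2 ratios of the 8 genes above the floor moved by less than the spread between probe sets, 9 moved by more, and no counted ratio changed sign. Aldh1a1 has no ratio in this comparison, and Crabp1 has none without shared-probe probe sets. Most that moved were bounds of Cyp26b1, from -3.38 to -1.30 in the back pair and from 2.17 to 4.25 between the mutants, as the floor sets their size. Of 32 counts of the 9 genes, 30 held within 1.5 times. In the limb pair 1 gene in place of 0 was counted after loess (Aldh1a3) and without rescaling (Aldh1a1, whose signals then lie partly above the floor). Counts over the 4 pathway lists were small and 13 of 32 moved by over 1.5 times. Without rescaling, signals with trimmed means near 1478 met the same floor of 100, so dimmer genes were included. This gave 16844 genes measured in the limb pair in place of 14497. In the limb pair 2 genes became 8 without rescaling, and 1 with a floor of 200, after loess, as a median over probe sets, with a pseudocount and without shared-probe probe sets. In the back pair 4 became 12 without rescaling, 0 with a floor of 200, and 1 as a median over probe sets or after loess. Between the wild types 7 became 14 without rescaling and 2 with a pseudocount, and between the mutants 10 became 5 with a floor of 200. The nearest patterns to Cyp26b1 were recomputed under settings chosen after seeing the data, loess left out because it gives no level per array. No paired analysis was possible because each group has 1 array. Signals under or near the floor limit what can be said of Aldh1a1, Aldh1a3, Rarb, Cyp26a1 in WT back and Cyp26b1 in the array labelled Myf5-null.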

Other observations

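The repeat found before the starts of Rarb and Cyp26a1 was present in promoters of 31 genes, a set looked up after the values were seen. Of these, 11 were on the array, Rarb and Cyp26a1 included. Several were near the floor. In WT back and the array labelled Myf5-null, Ppbp read 136 and 156, and Tnfsf13b read 152 and 115. The ratios of Cfap45 (higher) and Prss27 (lower) in the back pair were bounds. In the limb pair 6 of the 10 above the floor were higher in MyoD-null limb and 4 lower, with a median of 0.26, and in the back pair 7 were higher and 3 lower, with a median of 0.32. Over all genes the medians were -0.045 and 0.045, with 46.1% and 53.9% higher. Between the wild types 5 were higher and 5 lower in limb, with a median of -0.07. In MyoD-null limb against the array labelled Myf5-null, 1 was higher and 8 lower, with a median of -0.19. Over all genes 53.2% and 44.4% were higher in these 2 comparisons, and all 4 comparisons share arrays with others. At 2-fold, Syndig1, a synapse gene, was counted in the limb pair, at 228 in MyoD-null limb against under the floor in WT limb, and Cyp26a1 and Syndig1 were counted between the wild types, in opposite directions.

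Markers of other cell types gave these summed signals in the order WT limb, MyoD-null limb, WT back, array labelled Myf5-null. Muscle connective tissue had 81044, 78946, 91448 and 103728. Neurons had 1628, 1258, 2962 and 2483, Schwann cells 3464, 3961, 5475 and 3796, and red blood cells 118879, 84439, 82685 and 130747. The liver list had 657, 262, 2747 and 596. The list of mesothelium and epicardium, tissues that express Aldh1a2, had 3614, 5129, 2084 and 1998. In the limb arrays most of that sum was Tbx18, at 2901 and 4613, which limb mesenchyme also expresses. The other members had no common direction. Upk1b was higher in both limb arrays, at 253 and 221 against 149.9 and 190.0 in back, Krt19 was highest in WT limb, and Msln was under the floor in all 4. Wt1, Upk3b and Lrrn4 were higher in both back arrays, with Wt1 at 428 in WT and 657 in the array labelled Myf5-null, against 108 in WT limb and a signal under the floor in MyoD-null limb.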
